A study of Caenorhabditis elegans with 12 samples.

Results

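Described here are 10 genes of Caenorhabditis elegans that handle superoxide and hydrogen peroxide or govern that defence. They are the superoxide dismutases sod-1 (C15F1.7), sod-2 (F10D11.1), sod-4 (F55H2.1) and sod-5 (ZK430.3) and the catalases ctl-1 (Y54G11A.6), ctl-2 (Y54G11A.5) and ctl-3 (Y54G11A.13). The others are the peroxiredoxin gene prdx-2 (F09E5.15), the transcription factor gene skn-1 (T19E7.2) and its target gcs-1 (F37B12.2). The 10 were picked by gene identifier out of 46589 genes in the count tables, with no measured value in the rule. Of the 10, 9 passed the filter on low counts that left 15245 genes to test, and sod-5 did not.

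RNA was sequenced from whole day 1 worms, about 5000 per library from 3 plates, in 12 libraries, 1 for each combination of genotype and temperature. At 22 °C the backgrounds were wild type (N2) and a ung-1 mutant, and at 20 °C they were wild type and a nth-1 mutant. ung-1 and nth-1 encode DNA glycosylases, enzymes that cut damaged bases out of DNA. Each background was sequenced without tau, with a tau transgene that aggregates (strain BR5270 on the wild-type background) and with an anti-aggregate version of it (BR5271). In these strains the transgene is made in neurons, so a whole-worm library dilutes any neuronal response. In bulk RNA, fewer cells of a type and less RNA per cell cannot be told apart. With 1 library per group, no source says that libraries of a comparison came from separate replicate cultures. The p-values below measure the spread between libraries around a fitted model. That model was additive in background and tau state, or held further terms for glycosylase loss by tau state. Temperature and mutant are tied together: ung-1 was read at 22 °C alone and nth-1 at 20 °C alone.

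Superoxide dismutases turn superoxide into hydrogen peroxide and oxygen. SOD-1 works in the cytosol with copper and zinc, SOD-2 in mitochondria with manganese, SOD-4 outside the cell or at its surface, and SOD-5 mainly in the dauer larva. Hydrogen peroxide is then removed by catalases, of which CTL-1 is cytosolic and CTL-2 peroxisomal, and by peroxiredoxins such as PRDX-2. SKN-1, the worm relative of the mammalian Nrf factors, switches on detoxification genes in the intestine, and supplied by the mother it also sets the fate of early embryonic cells. GCS-1, the catalytic subunit of glutamate-cysteine ligase, makes the first step of glutathione synthesis and is a standard SKN-1 target.

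Library totals ran from 15124127 to 35204808 counts. As a check of the labels, ung-1 stood at 11.9 to 14.5 CPM, counts scaled to the same library size, in the 3 libraries labelled ung-1 and at 39.9 to 46.6 CPM in the wild-type libraries of 22 °C. nth-1 stood at 5.06 and 5.08 CPM in the libraries labelled nth-1 without tau and with aggregate tau, and at 22.96 to 26.75 CPM in the wild-type libraries of 20 °C. In the anti-aggregate library labelled nth-1 it stood at 11.4 CPM, above the other nth-1 libraries and below the wild type, so results on nth-1 are also given without that library. ung-1 itself was at 27.01, 28.01 and 49.6 CPM in the libraries labelled nth-1 (no tau, aggregate, anti-aggregate) and at 37.7 to 62.3 CPM in the wild type of 20 °C. The titles of the 3 nth-1 libraries name ung-1, and the genotype label was used.

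The genes lie on 4 chromosomes of the WBcel235 build. Of the 10, 7 sit on chromosome II, which holds 17.15% of all tested genes. They are sod-5 (4417633 to 4419130, plus strand), prdx-2 (5378195 to 5379631, plus), sod-1 (6972706 to 6973887, minus), gcs-1 (9035562 to 9038301, minus) and the catalases. The catalase genes stand side by side on the minus strand in the order ctl-2 (14299556 to 14302027), ctl-1 (14303568 to 14306260) and ctl-3 (14307798 to 14310779), with gaps of 1540 and 1537 bp between them. sod-2 lies on chromosome I (8434550 to 8435807, plus), sod-4 on III (9496884 to 9500375, minus) and skn-1 on IV (5651039 to 5660384, minus). Exons of 5 members overlap exons on the other strand. The longest overlap in bp is between sod-4 and ctr-9, with 175 bp or 13.4% of the exon length of sod-4. The others are sod-1 with a non-coding RNA gene (85 bp), ctl-2 with Y54G11A.7 (65 bp), skn-1 with csn-5 (41 bp) and sod-2 with dpt-1 (21 bp). Use of strand in the counting is not given in the sources used here, so reads of these stretches may be counted for either gene.

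Per kilobase of exon, prdx-2 was the most abundant member, followed by sod-1 and sod-2, in that order in 12 of 12 libraries. Their mean levels over the 12 libraries were 765, 268 and 162 CPM per kb. skn-1 and gcs-1 came next at 53.9 and 51.8 CPM per kb, and their order was not fixed, as skn-1 stood above gcs-1 in 8 of 12 libraries. ctl-2 averaged 29.0 CPM per kb and ranked 5 or 6 among the 10. ctl-1, ctl-3 and sod-4 averaged 9.47, 8.45 and 6.64 CPM per kb, took the ranks below in varying order, and are not separated: ctl-1 exceeded ctl-3 in 8 of 12 libraries and sod-4 in 8 of 12. sod-5 was the lowest in 12 of 12 at a mean of 0.228 CPM per kb.

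Among the superoxide dismutases, sod-1 and sod-2 supplied almost all counts. sod-1 took 55.8% to 60.7% of the counts of the 4 genes, sod-2 36.2% to 42.3%, sod-4 1.33% to 3.803% and sod-5 at most 0.129%.

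**Figure D1:**
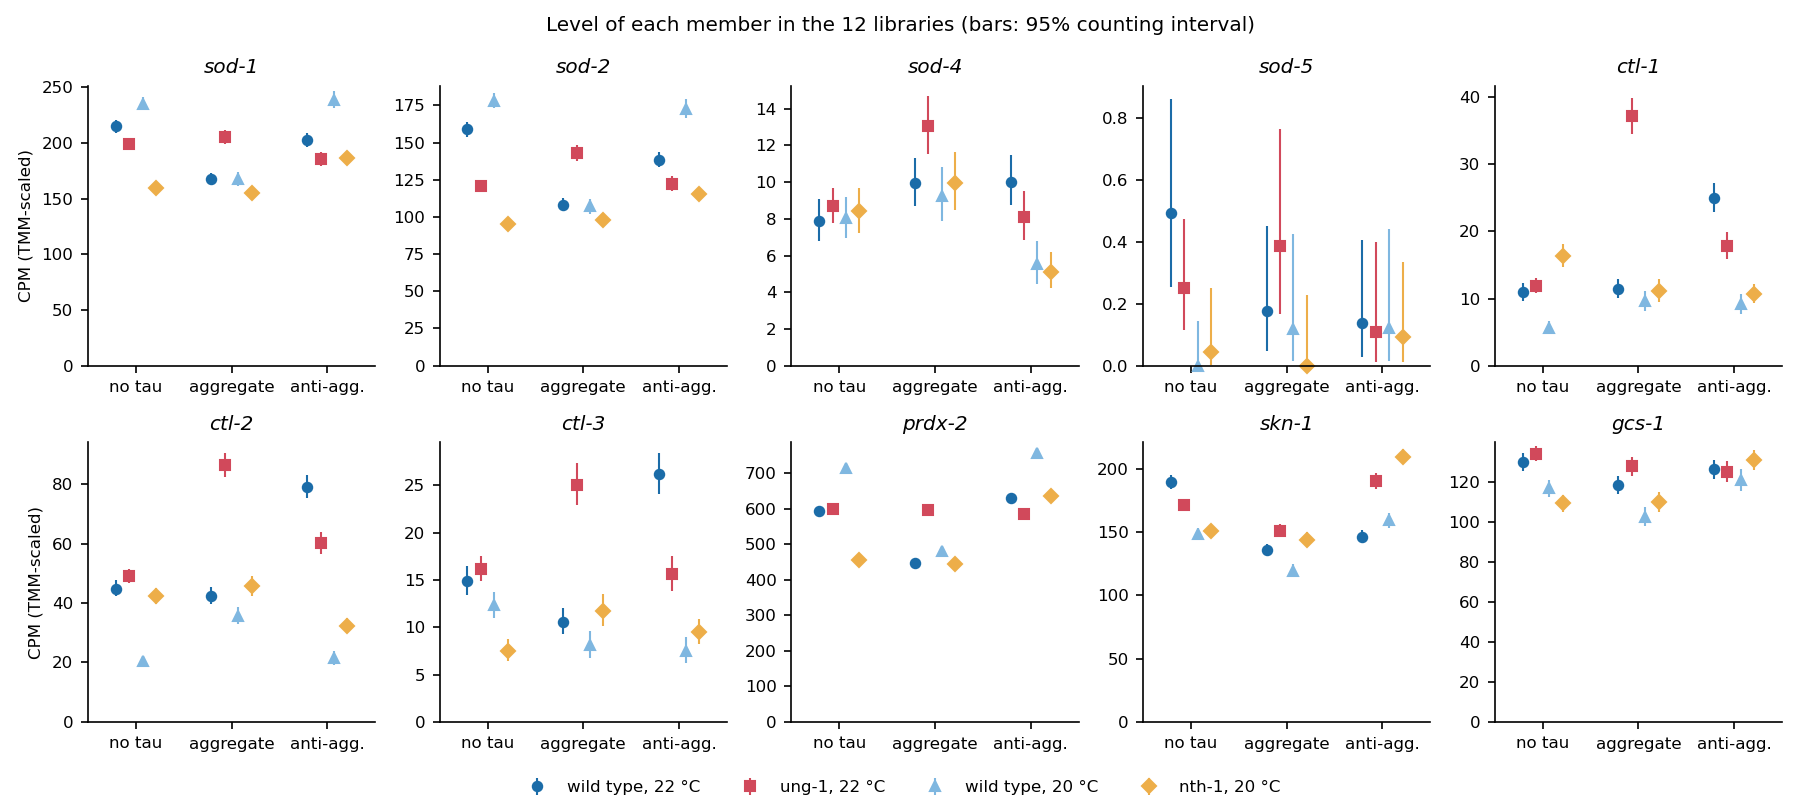
Level of each of the 10 genes in CPM (vertical axes, each starting at 0) against tau state (none, aggregate, anti-aggregate), with 1 symbol per background and bars for 95% exact Poisson intervals, which cover counting error only. sod-1, sod-2 and prdx-2 are low in aggregate tau on both wild-type backgrounds and in nth-1 without tau and with aggregate tau, while gcs-1 is nearly flat, between 102.5 and 134 CPM.

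The members differed widely in how much they moved between libraries. gcs-1 was the steadiest, with an SD of 0.12 on the log2 CPM scale over the 12 libraries, and 0.302% of all tested genes had a smaller SD. sod-1 (SD 0.21), skn-1 (0.23), prdx-2 (0.26), sod-2 (0.31) and sod-4 (0.36) were also below the median SD of all tested genes, 0.64. The catalases were at that median, with 0.61 for ctl-3, 0.64 for ctl-2 and 0.71 for ctl-1. The highest library was 1.31 times the lowest for gcs-1 and 6.56 times the lowest for ctl-1. Genes with few counts vary more through counting alone, so these SDs are descriptions of the libraries.

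sod-1 was low in the same 4 libraries as sod-2 and prdx-2. On the wild-type background sod-1 stood at 215 CPM without tau, 168 with aggregate and 202 with anti-aggregate tau at 22 °C. The same strains at 20 °C gave 235, 168 and 238.5 CPM. The aggregate strain was thus the lowest of the 3 at both temperatures. The ung-1 libraries read 199 CPM without tau, 205 with aggregate and 185 with anti-aggregate tau. The nth-1 libraries read 159, 155 and 186 CPM in that order, the first pair of them below all 3 wild-type libraries of 20 °C. In pairs of single libraries, the log2 ratio of aggregate to no tau in the wild type was -0.36 at 22 °C and -0.49 at 20 °C, with counting intervals below 0. In ung-1 and nth-1 the same ratio was 0.05 and -0.04, with counting intervals that include 0.

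sod-2 was also lowest with aggregate tau in each wild-type trio, over a wider range of levels. In the wild type it stood at 159 CPM without tau, 108 with aggregate and 139 with anti-aggregate tau at 22 °C. At 20 °C the wild-type values were 178, 107 and 173 CPM. In ung-1 the values were 120.5, 143 and 122 CPM, where the aggregate library was the highest of the 3. In nth-1 they were 95.03, 97.7 and 116 CPM, and the library without tau was the lowest of all 12.

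prdx-2 read 595 CPM without tau, 446 with aggregate and 630.2 with anti-aggregate tau in the wild type at 22 °C. At 20 °C it read 714, 482 and 757 CPM. In ung-1 its libraries lay close together, at 598, 596.5 and 585 CPM. In nth-1 it read 456 and 445 CPM without tau and with aggregate tau, against 636 CPM in the anti-aggregate library labelled nth-1. For sod-1, sod-2 and prdx-2 alike, the same 4 libraries were the lowest of 12, with no overlap with the other 8. They were the aggregate libraries on the wild-type backgrounds and the nth-1 libraries without tau and with aggregate tau. The 4 were picked out by these same levels. How many of all tested genes split the libraries in this way was not counted.

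The summed markers of 4 of 9 tissue and stage lists (oocyte, cuticle, muscle and sperm) also separated those 4 libraries from the other 8, and those of the 5 others (germline, intestine, yolk, moult and neuron) overlapped. The summed level of 7 oocyte markers was 2793 to 4519 CPM in the 4 and 5772 to 8403 CPM in the rest. Of 8 cuticle genes the sum was 1674 to 2444 CPM against 213 to 488, or to 716 CPM with the anti-aggregate library labelled nth-1. Muscle genes, 8 in number, summed to 2481 to 7676 CPM against 602 to 1648, and 8 sperm genes to 108 to 382 CPM against 27.6 to 46. By these sums the 4 libraries were low in oocyte and high in cuticle, muscle and sperm RNA. The part of these shifts in the levels of sod-1, sod-2 and prdx-2 was not tested. Not every marker followed its sum: spe-44 of the sperm list stood at 19.5 and 21.5 CPM in nth-1 without tau and with aggregate tau. In the wild type of 20 °C it stood at 32.6 CPM without tau, 72.3 with aggregate and 30.4 with anti-aggregate tau. At least 1 count was present for all 7 oocyte and all 8 muscle genes in each library, and for at least 4 of 8 cuticle and 6 of 8 sperm genes. Germline markers summed to 2514 to 3285 CPM in the 4 libraries and 2938 to 4538 CPM in the rest, and neuronal markers, 11 of 11 detected in each library, to 251 to 329 CPM against 168 to 266.

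**Figure D2:**
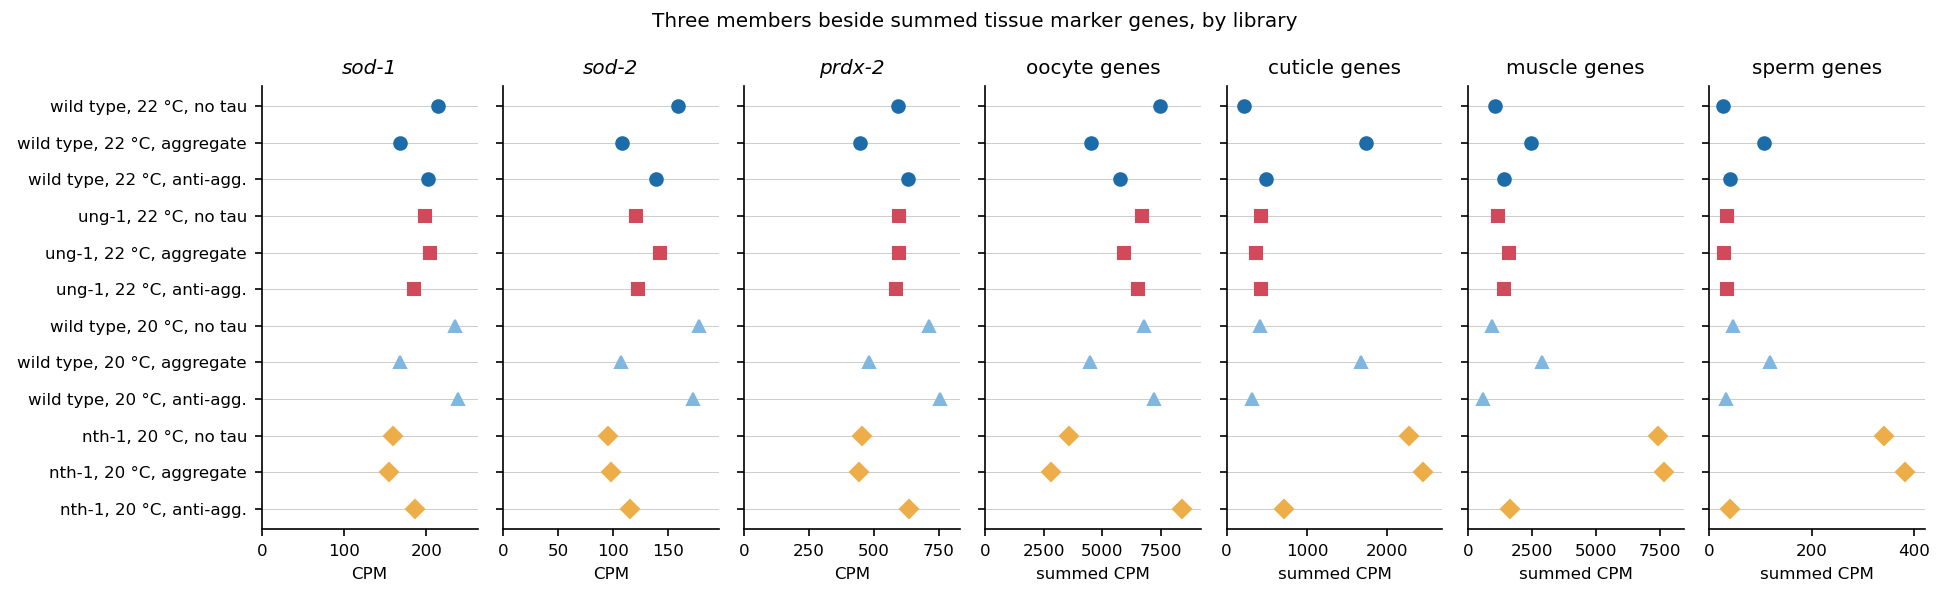
CPM of sod-1, sod-2 and prdx-2 beside the summed CPM of oocyte, cuticle, muscle and sperm markers in the 12 libraries, 1 point per library. The 4 libraries lowest in the 3 genes are also the 4 lowest in oocyte markers and the 4 highest in cuticle, muscle and sperm markers.

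sod-4 was a low-level gene, between 5.12 and 13.1 CPM (110 counts in the lowest library and 269 in the highest). It was higher with aggregate tau, at 9.27 to 13.1 CPM, than without tau, at 7.88 to 8.69 CPM, and the 4 aggregate libraries did not overlap the 4 without tau. It was the only tested member of which this holds; over all tested genes, 2.06% were higher in that comparison without overlap. The anti-aggregate libraries spanned 5.12 to 10.02 CPM and overlapped both. In pairs of single libraries, 2 of the 4 aggregate over no tau ratios of sod-4 had counting intervals above 0. sod-4 is the member with the longest overlap with a gene on the other strand.

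sod-5 was read 12, 9, 4, 3, 8 and 2 times in the 22 °C libraries, in the order wild type without tau, ung-1 without tau, wild type with aggregate and with anti-aggregate tau, ung-1 with aggregate and with anti-aggregate tau. At 20 °C the counts were 0, 1, 2, 2, 0 and 2, in the same order with nth-1 for ung-1. Counts at 22 °C were at or above those at 20 °C, but no library reached 0.5 CPM. Scaled to library size, the 22 °C libraries, at 0.110 to 0.493 CPM, overlapped those of 20 °C, at 0 to 0.122 CPM. With 0 counts in the wild type without tau at 20 °C, a level of up to 0.118 CPM (3 counts) is allowed. No fold change is given for sod-5.

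Of the catalases, ctl-2, the peroxisomal enzyme, gave most of the RNA. In the wild type ctl-2 stood at 44.9 CPM without tau, 42.5 with aggregate and 79.2 with anti-aggregate tau at 22 °C. At 20 °C it stood at 20.5, 35.6 and 21.4 CPM. The 22 °C library was the higher in each of these 3 pairs. In ung-1 it read 49.1, 86.4 and 60.1 CPM, and in nth-1 42.3, 45.7 and 32.3 CPM.

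ctl-1, the cytosolic enzyme, read 10.9, 11.4 and 25.0 CPM in the wild type at 22 °C without tau, with aggregate and with anti-aggregate tau. In the wild type at 20 °C it read 5.67, 9.56 and 9.14 CPM. It was highest, at 37.2 CPM, in ung-1 with aggregate tau, where ctl-2 was also highest. The other ung-1 libraries gave 11.85 CPM without tau and 17.8 with anti-aggregate tau. In nth-1 it read 16.3, 11.09 and 10.65 CPM, above the wild type of the same tau state in each case.

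ctl-3 was highest in the wild type with anti-aggregate tau at 22 °C. In the wild type it stood at 14.9 CPM without tau, 10.6 with aggregate and 26.2 with anti-aggregate tau at 22 °C, and at 12.3, 8.09 and 7.50 CPM at 20 °C. In ung-1 it read 16.2, 25.1 and 15.7 CPM. In nth-1 it read 7.54, 11.7 and 9.53 CPM. It differed from the other catalases without tau at 20 °C, where the log2 ratio of nth-1 to wild type was 1.51 for ctl-1, 1.04 for ctl-2 and -0.70 for ctl-3, single libraries with no replicate check. The share of ctl-3 in the counts of the 3 catalases accordingly ran from 11.4% in nth-1 without tau to 32.0% in the wild type without tau at 20 °C. That of ctl-2 ran from 53.2% to 66.9% and that of ctl-1 from 14.7% to 25.0%. These 3 genes resemble each other, and how the counting treated reads that match several places is not given, so the split between them is less certain than their sum.

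**Figure D3:**
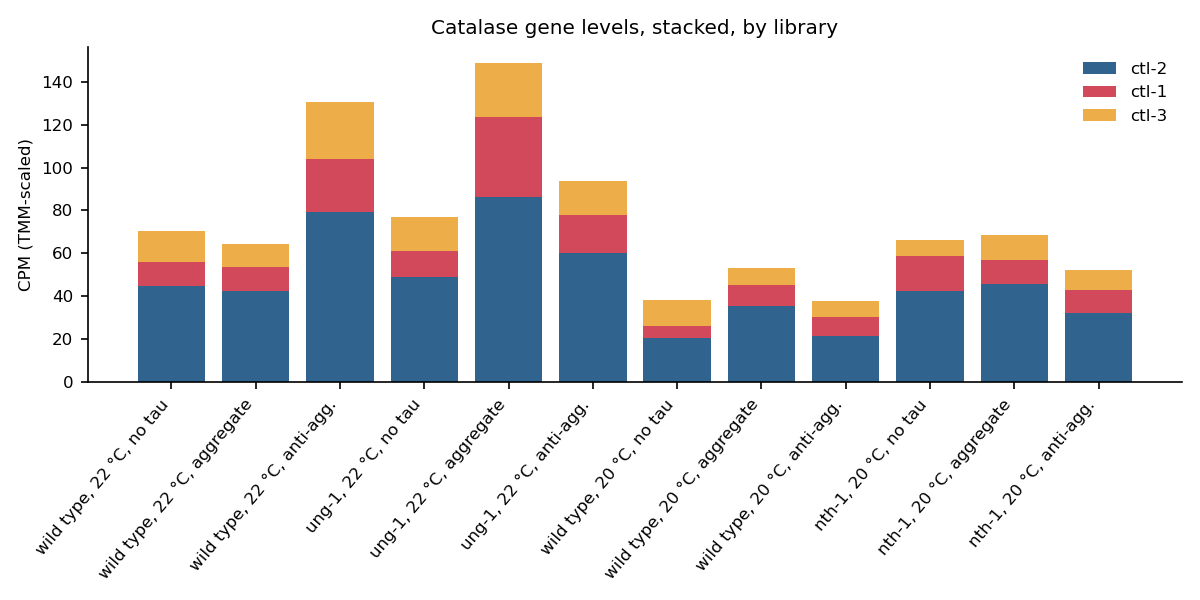
CPM of ctl-1, ctl-2 and ctl-3 stacked for each of the 12 libraries, with the vertical axis from 0. The summed level is highest in ung-1 with aggregate tau (149 CPM) and wild type with anti-aggregate tau at 22 °C (130.4 CPM), and lowest in the wild type with anti-aggregate tau and without tau at 20 °C (38.02 and 38.47 CPM).

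skn-1 was lower with aggregate tau than without tau in 4 of 4 backgrounds, and lower than with anti-aggregate tau in 4 of 4. Counting intervals of the log2 ratio lay below 0 in 3 of 4 pairs against no tau and 4 of 4 against anti-aggregate tau. How many of all tested genes had the same signs was not counted. The log2 ratio of aggregate to no tau was also below 0 in 4 of 4 backgrounds for prdx-2, with 2 counting intervals below 0. In the wild type skn-1 stood at 189.5 CPM without tau, 136 with aggregate and 146 with anti-aggregate tau at 22 °C, and at 148, 119.3 and 159 CPM at 20 °C. In ung-1 it read 171, 151 and 190.2 CPM. In nth-1 it read 150.4, 144 and 209.5 CPM, the last in the anti-aggregate library labelled nth-1 and the highest of all 12. The 4 aggregate libraries, at 119.3 to 151 CPM, still overlapped the 4 without tau, at 148 to 189.5 CPM.

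gcs-1 stayed within 102.5 and 134 CPM. In the wild type it read 130.0, 118.5 and 126 CPM without tau, with aggregate and with anti-aggregate tau at 22 °C, and 117, 102.5 and 121 CPM at 20 °C. In ung-1 it read 134, 128 and 125 CPM and in nth-1 109, 109.8 and 131 CPM. The aggregate libraries were the lowest of the wild-type trio at both temperatures, by small amounts. Another SKN-1 target, the glutathione S-transferase gene gst-4, was far less steady, at 4.20 to 19.4 CPM. The gene of WDR-23, which sends SKN-1 to degradation, stood at 66.7 to 107.6 CPM.

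With aggregate tau on the wild-type backgrounds, 2 libraries against 2 without tau, sod-1, sod-2, prdx-2 and skn-1 had lower values, and this was the comparison with the most members at an unadjusted p under 0.05. None of the 9 tested members passed an adjusted p of 0.05 by edgeR's quasi-likelihood test, where 1.51% of all tested genes passed (230 genes, 227 of them higher). An unadjusted p under 0.05 was found for 4 of 9 members and 5104 of the 15245 tested genes. On the log2 scale sod-2 differed by -0.64 (SE 0.16, adjusted p = 0.0961), prdx-2 -0.49 (SE 0.17, adjusted p = 0.125), sod-1 -0.42 (SE 0.15, adjusted p = 0.125) and skn-1 -0.40 (SE 0.16, adjusted p = 0.138), all by edgeR. The median over the 9 was -0.40, with 3 of 9 above 0, while the median over all tested genes was 0.46, or 0.67 with total counts in place of TMM scaling. gcs-1 differed by -0.16 (SE 0.14), or by 0.044 with total counts, and the catalases and sod-4 had SEs of 0.38 to 0.54. With DESeq2, 3 of the 9 passed (sod-1, sod-2 and prdx-2) where 21.8% of all tested genes did, and with limma voom 0 of 9 members and 5.1% of tested genes. Left without the anti-aggregate library labelled nth-1, edgeR called sod-1, sod-2, prdx-2 and skn-1 (adjusted p = 0.02002, 0.0131, 0.0174 and 0.0436) among 35.3% of tested genes, and leaving out ung-1 with anti-aggregate tau called the same 4 among 35.4%. In the libraries as they fell, sod-1, sod-2, ctl-3, prdx-2 and skn-1 were lower without overlap and sod-4 higher; over all tested genes 30.4% were lower and 47% higher in that way.

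**Figure D4:**
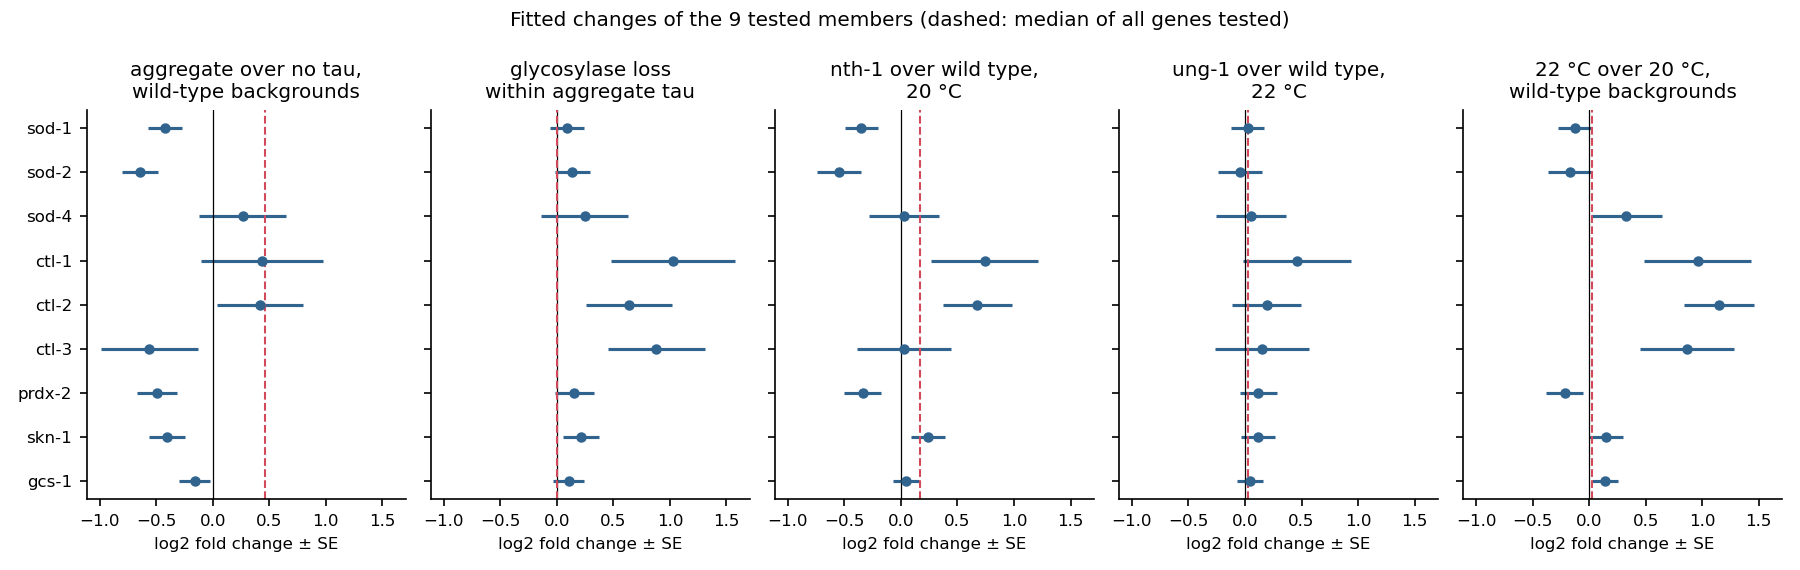
Log2 fold changes of the 9 tested genes in 5 comparisons (points) with their SE (bars), by edgeR over all tested genes; the dashed line is the median over all tested genes. sod-2 lies at -0.64 for aggregate over no tau on the wild-type backgrounds, and ctl-2 at 1.15 for 22 °C over 20 °C.

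Loss of either glycosylase within the aggregate strain was compared over 2 mutant and 2 wild-type libraries. None of the 9 members passed by edgeR, where 0.984% of all tested genes did (150 genes, 149 of them lower), and 0 of 9 members and 1580 tested genes had an unadjusted p under 0.05. DESeq2 and limma voom also called 0 members, among 4.34% and 1.94% of tested genes. The catalases had the largest log2 fold changes, 1.03 for ctl-1 (SE 0.55, adjusted p = 0.626), 0.88 for ctl-3 (SE 0.43, adjusted p = 0.573) and 0.64 for ctl-2 (SE 0.38, adjusted p = 0.687). Their counts summed to a single row gave 0.76 (SE 0.36, adjusted p = 0.548). Of the 9 members, 9 had a log2 fold change above 0 with TMM scaling and 4 with total counts, which moved the median of all tested genes from 0.0036 to -0.23. By TMM-scaled CPM, sod-4, ctl-2, ctl-3 and skn-1 were higher in both mutant libraries than in both wild-type ones, as were 16.6% of all tested genes. The mutants differed for ctl-1: its log2 ratio to wild type with aggregate tau was 1.699 in ung-1, where the levels were 37.2 against 11.4 CPM, and 0.21 in nth-1, where they were 11.09 against 9.56 CPM. This contrast shares the wild-type aggregate libraries with the preceding one.

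The interaction asked whether aggregate tau moved a gene by another amount when a glycosylase was lost. None of the 9 passed by edgeR, where 0.0131% of all tested genes passed, and DESeq2 and limma voom called 0 of 9, among 2.53% and 0.184% of tested genes. sod-2 was the 1 member with an unadjusted p under 0.05, as had 1783 of all tested genes, and had an interaction term of 0.79 (SE 0.22, adjusted p = 0.355). ctl-3 had 1.19 (SE 0.60, adjusted p = 0.433). For sod-2, the log2 ratios of aggregate to no tau behind that term were -0.56 and -0.73 in the wild type at 22 and 20 °C, and 0.25 and 0.04 in ung-1 and nth-1.

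In the comparison of tau states over all backgrounds, 4 libraries against 4, no member passed by edgeR and 0% of all tested genes did, in aggregate over no tau as in aggregate over anti-aggregate and anti-aggregate over no tau. For aggregate over no tau, 0 of 9 members had an unadjusted p under 0.05, against 1874 of all tested genes. skn-1 differed by -0.27 (SE 0.13, adjusted p = 0.363), and by -0.30 within the 22 °C libraries and -0.32 within the 20 °C libraries. For aggregate over anti-aggregate tau, prdx-2 (-0.41, SE 0.14, adjusted p = 0.137) and skn-1 (-0.36, SE 0.13, adjusted p = 0.137) had an unadjusted p under 0.05, as did 5047 of all tested genes. Without the anti-aggregate library labelled nth-1 they differed by -0.33 and -0.26 (adjusted p = 0.334 for both, edgeR). DESeq2 called prdx-2 there (adjusted p = 0.04999) among 11.9% of all tested genes. For anti-aggregate over no tau, log2 fold changes ran from -0.24 for sod-4 to 0.46 for ctl-1. There 0 of 9 had an unadjusted p under 0.05 by edgeR, against 253 of all tested genes. By DESeq2 no member passed in the contrasts against no tau, among 0.341% of tested genes for aggregate and 0.00656% for anti-aggregate tau. In all 3 contrasts limma voom called 0 of 9 members and 0% of tested genes. Fits of each temperature alone by edgeR also called 0 members. At 22 °C they called 0% of tested genes in all 3 contrasts. At 20 °C they called 0.41% for aggregate over no tau, 10.4% for anti-aggregate over no tau and 31.4% for aggregate over anti-aggregate.

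For the mutants, nth-1 against wild type over 3 libraries each at 20 °C gave 0 of 9 members and 0% of all tested genes by edgeR, with 5575 genes at an unadjusted p under 0.05. Among the members 2 of 9 were, sod-2 with -0.55 (SE 0.20, adjusted p = 0.0940) and sod-1 with -0.35 (SE 0.14, adjusted p = 0.120). prdx-2 differed by -0.34 (SE 0.16, adjusted p = 0.165), ctl-2 by 0.67 (SE 0.30, adjusted p = 0.142) and ctl-1 by 0.74 (SE 0.47, adjusted p = 0.274). ctl-1 alone was higher in nth-1 without overlap, as were 6.05% of all tested genes. Without the anti-aggregate library labelled nth-1 the values were -0.61 for sod-2, -0.41 for sod-1, -0.44 for prdx-2, 0.85 for ctl-2 and 1.00 for ctl-1, and 0 of 9 members passed where 34.9% of tested genes did. With total counts in place of TMM, sod-1 and sod-2 passed (adjusted p = 0.0480 and 0.0405) among 9.26% of all tested genes. DESeq2 and limma voom called 0 of 9 members here, among 28% and 9.09% of tested genes.

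ung-1 was set against wild type over 3 libraries each at 22 °C. edgeR called 0 of 9 members and 0% of all tested genes, 160 genes and 0 members had an unadjusted p under 0.05, and log2 fold changes ran from -0.05 for sod-2 to 0.46 for ctl-1 (SE 0.48). The single pairs of the catalases varied widely, with log2 ratios from -0.49 to 1.699 for ctl-1, -0.40 to 1.02 for ctl-2 and -0.74 to 1.24 for ctl-3. DESeq2 and limma voom called 0 of 9 members, among 0.0328% and 0% of tested genes. The difference between the mutants' effects was -0.50 for sod-2 (SE 0.28, adjusted p = 0.313) and -0.45 for prdx-2 (SE 0.23, adjusted p = 0.296), and 0 of 9 members and 0% of all tested genes passed; 2806 genes and 0 members had an unadjusted p under 0.05. In that difference DESeq2 and limma voom called 0 of 9 members, among 0.525% and 0% of tested genes. Without the anti-aggregate library labelled nth-1 the difference was -0.56 for sod-2 (adjusted p = 0.205), -0.55 for prdx-2 (adjusted p = 0.131) and -0.02 for skn-1, from 0.12 with it, and edgeR called 6.26% of tested genes and 0 of 9 members.

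Between temperatures on the wild-type backgrounds, 3 libraries against 3, no member passed. On the log2 scale ctl-2 differed by 1.15 (SE 0.31, unadjusted p = 0.0046, adjusted p = 0.527), ctl-1 by 0.96 (SE 0.47, adjusted p = 0.658) and ctl-3 by 0.86 (SE 0.42, adjusted p = 0.658). Summed, they differed by 1.05 (SE 0.31, adjusted p = 0.603 by edgeR). By edgeR 0 of 9 members and 0% of all tested genes passed. DESeq2 and limma voom called 0 of 9 members, among 0.925% and 0% of tested genes. Of all tested genes 1147 had an unadjusted p under 0.05, and ctl-2 alone of the members. ctl-1 and ctl-2 were higher without overlap, as were 5.9% of all tested genes, while ctl-3 overlapped, at 10.6 to 26.2 CPM at 22 °C and 7.50 to 12.3 CPM at 20 °C. The size varied by tau state: log2 ratios of ctl-2 were 1.13 without tau, 0.26 with aggregate and 1.88 with anti-aggregate tau. The labels do not say whether the libraries of each temperature were made together. If they were, that could not be told apart from temperature.

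Other genes of hydrogen peroxide handling and of SKN-1 control were read in 8 lists for aggregate over no tau on the wild-type backgrounds, with levels in 12 libraries. Among the 8 glutathione peroxidase genes, gpx-4 was called as higher (log2 fold change 3.63, SE 0.58, adjusted p = 0.0399 by edgeR). gpx-4 stood at 42.1 CPM with aggregate tau and 2.75 CPM without tau in the wild type at 22 °C. At 20 °C it stood at 9.27 CPM with aggregate tau and 0.984 CPM without tau. In ung-1 and nth-1 with aggregate tau it was at 3.64 and 1.11 CPM, close to the same mutants without tau at 2.53 and 1.94 CPM. The 7 other peroxidases did not pass, and 6 of 8 had a log2 fold change above 0, with a median of 0.51 against 0.46 over all tested genes.

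Of the glutathione, thioredoxin and peroxiredoxin list, 0 of 15 tested genes passed and 12 of 15 were below 0, with a median of -0.37. They include gsr-1, glutathione reductase (-0.54, SE 0.19), gss-1, glutathione synthetase (-0.52, SE 0.21), and prdx-3, the mitochondrial peroxiredoxin (-0.35, SE 0.13). trxr-1, a thioredoxin reductase, was above 0 (0.45, SE 0.13). The summed level of the 17 listed genes differed in direction by temperature. With aggregate tau it was higher than without at 22 °C, at 1303 against 1212 CPM, and lower at 20 °C, at 1265 against 1509 CPM. Among 18 SKN-1 regulators 0 passed, 12 were below 0 and the median was -0.20. Of the detoxification targets of SKN-1, 11 of 13 were above 0 with a median of 0.72, and 0 passed. Above 0 were also 9242 of the 15245 tested genes, and the summed level of these targets was lower with aggregate tau than without, at 200.3 against 267.7 CPM at 22 °C and 231 against 331.5 CPM at 20 °C. gst-4 differed by 0.86 (SE 0.56, adjusted p = 0.269).

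Dual oxidase and haem peroxidase genes, which cross-link the cuticle, had a median of 2.01 over 7 tested genes, with 6 above 0 and 0 passed, while their summed level was lower with aggregate tau than without, at 383.5 against 413.8 CPM at 22 °C and 428.5 against 532.1 CPM at 20 °C. bli-3, the dual oxidase, differed by 1.23 (SE 0.30, adjusted p = 0.0952) and mlt-7, a peroxidase needed for moulting, by 2.19 (SE 0.57, adjusted p = 0.105). The summed cuticle markers were higher in the same libraries, as given above. Peroxisome genes had 11 of 15 above 0, a median of 0.48 and 0 passed. Their summed level was lower with aggregate tau than without, at 553.3 against 567.6 CPM at 22 °C and 518.5 against 549.1 CPM at 20 °C. Of all 15245 tested genes, 9242 were above 0, with a median of 0.46. Genes of copper and manganese supply had 2 of 5 above 0, a median of -0.21 and 0 passed. The list of daf-16 and sod-3 had 2 of 2 above 0 and 0 passed. sod-3, the inducible mitochondrial dismutase under DAF-16, stood at 0.418 to 3.25 CPM and differed by 1.08 (SE 0.66, adjusted p = 0.253) here and by -2.06 (SE 0.69, adjusted p = 0.341) for glycosylase loss in the aggregate strain.

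**Figure D5:**
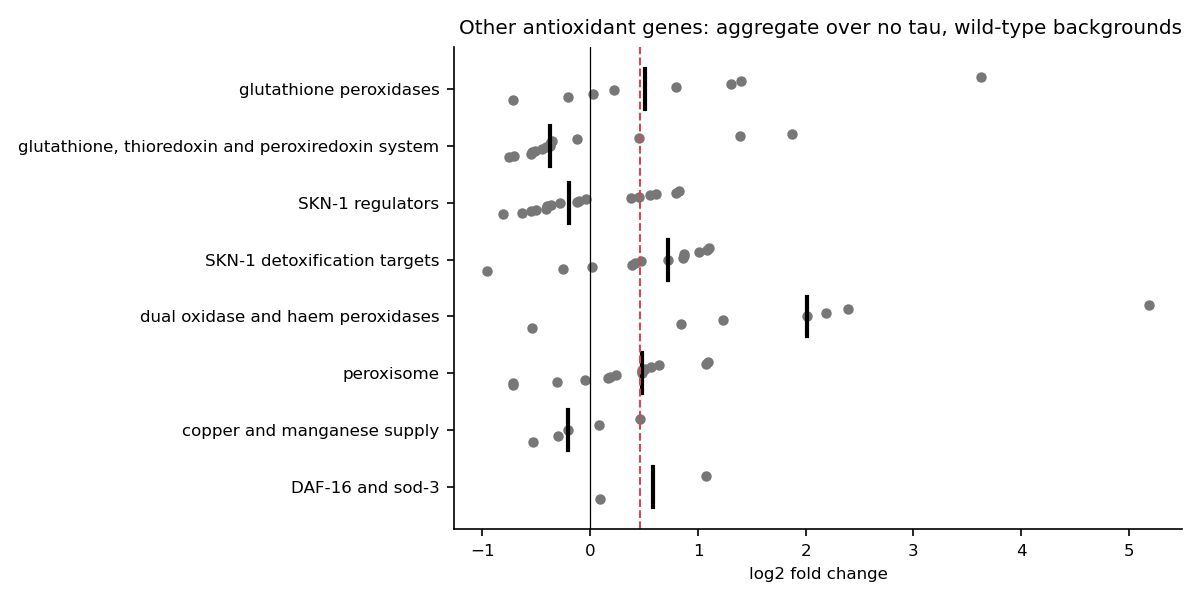
Log2 fold changes of the tested genes of 8 lists for aggregate over no tau on the wild-type backgrounds (points, edgeR), with each list's median as a black bar and the median over all tested genes, 0.46, as a dashed line. gpx-4 at 3.63 is the only one of these genes that passed an adjusted p of 0.05.

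Likeness was measured as the root mean square difference of centred log2 CPM over the 12 libraries, among 5678 named genes that averaged 5 CPM or more. The closest to sod-1 were gop-3 (0.0466), tspo-1 (0.0527) and the mitochondrial peroxiredoxin gene prdx-3 (0.0545). sod-2 had copz-1 (0.0745), mrpl-21 (0.0757) and nuaf-1 (0.0763). prdx-2 had dif-1 (0.0504), parn-2 (0.0511) and cdc-42 (0.0570). Between members, sod-1 and prdx-2 differed by 0.0946, which put prdx-2 at rank 50 for sod-1, and sod-1 stood at rank 47 for sod-2 with 0.109.

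ctl-2 had kqt-3 (0.155), nfm-1 (0.160) and serp-1.1 (0.166). ctl-1 had ubc-8 (0.233), dct-1 (0.239) and serp-1.1 (0.250), and ctl-2 stood at rank 6 for ctl-1 with 0.291. ctl-3 had cthd-1 (0.218), clec-218 (0.254) and fat-1 (0.266). Its rank for ctl-2 was 253 and for ctl-1 325. skn-1 had larp-5 (0.0604), rbm-26 (0.0727) and npp-8 (0.0751), gcs-1 had cnt-2 (0.0576), nhr-49 (0.0706) and acaa-2 (0.0724), and sod-4 had srlf-31 (0.161), clec-150 (0.190) and spp-14 (0.193). Steady genes differ little from each other by this measure, so small values for sod-1, prdx-2, skn-1 and gcs-1 partly follow from their small SDs.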

How the data were processed

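The authors deposited 1 table of read counts per gene for each of the 12 libraries. The submitters' processing notes name HISAT2, the WBcel235 build and edgeR 3.22.5. How genes were counted, with or without strand, and what became of reads with several matches is not given in the sources used here. Of 46589 gene identifiers, 46180 matched the Ensembl 115 annotation of that build, and unmatched ones held 0.228% of the counts.

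The quasi-likelihood test of edgeR 4.0.16, run in R 4.3.3 on TMM-scaled counts that passed filterByExpr, was used with Benjamini-Hochberg adjustment over 15245 genes at a threshold of 0.05. An additive fit of background and tau state over the 12 libraries left 6 residual degrees of freedom. A fit with terms for glycosylase loss by tau state, with 4, gave the contrasts on wild-type backgrounds, loss within aggregate tau and the interaction. Standard errors were derived from the fold change and its F value. CPM values use the TMM-scaled library size, single-library log2 ratios a prior count of 2, and 95% intervals are exact Poisson or Clopper-Pearson intervals that cover counting error only. Alternatives were RLE size factors, total counts, other filters, DESeq2 1.42.0, limma voom 3.58.1, each library left out, each temperature alone and summed catalases. The fits were tested on simulated data.

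The members, gene lists and tests were chosen with earlier results of these data known. Named beside the members were list genes that passed the threshold (gpx-4, and spe-44 of the sperm list), a few list genes by role, chosen after their values were seen, and the 3 genes most like each member. 1 list name, opt-2, did not match. Groups follow the genotype label, and the 12 libraries were all used.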

Additional observations from a re-analysis of the deposited data

Results flagged for a closer look

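The single-library ratios of sod-1 for anti-aggregate over no tau had opposite signs in the 22 °C and 20 °C libraries, and some were near 0. Its log2 ratio of anti-aggregate over no tau was -0.09 in the wild type and -0.10 in ung-1 at 22 °C, and 0.02 in the wild type and 0.23 in the library labelled nth-1 at 20 °C. gcs-1 was picked out in the same way, with -0.04 in the wild type and -0.10 in ung-1 at 22 °C, and 0.05 in the wild type and 0.26 in the library labelled nth-1 at 20 °C. Both genes were noted because every pair at one temperature had the other sign than every pair at the other temperature. The share of all tested genes that split in this way is not given here. The 95% counting intervals of the wild-type values at 20 °C, -0.039 to 0.078 for sod-1 and -0.034 to 0.131 for gcs-1, include 0, as does that of gcs-1 in the wild type at 22 °C. The difference was not tested, and temperature goes with the mutant. The labels do not say whether the libraries of each temperature were made together. The values of 0.23 and 0.26 come from the library whose nth-1 level lay between mutant and wild type.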

How the results depend on the processing

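No paired analysis was possible because each group has 1 library and the labels give no replicate numbers to pair by; background is a term of the additive fit. The number of members called was 0 by edgeR with TMM scaling in all 10 comparisons. With DESeq2 it was 3 for aggregate over no tau on the wild-type backgrounds and 1 for aggregate over anti-aggregate, and with total counts it was 2 for nth-1 over wild type. Leaving out each library in turn gave 0 to 4 for aggregate over no tau on the wild-type backgrounds and 0 to 0 for the 9 other comparisons. The number of all tested genes called ran from 1 to 5671, and from 0 to 5318 for nth-1 over wild type, 0 to 953 for the difference between mutants, 0 to 478 for loss within aggregate tau and 0 to 163 for the interaction. The cause was not tested.

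Of 1722 values of members under alternatives, 138 had the other sign than the reported value. None of the 138 passed the threshold, and in 6 the reported value exceeded its SE. With total counts, ung-1 over wild type was -0.076 for sod-1, -0.042 for sod-4 and -0.047 for gcs-1. nth-1 over wild type was -0.031 for sod-4, -0.027 for ctl-3 and -0.014 for gcs-1. Loss within aggregate tau was -0.15 for sod-1, -0.102 for sod-2, -0.084 for prdx-2, -0.027 for skn-1 and -0.13 for gcs-1. Aggregate over no tau on the wild-type backgrounds was 0.044 for gcs-1. sod-1 in ung-1 was -0.0073 among genes of at least 5 CPM and -0.012 in the 22 °C libraries alone, where anti-aggregate over no tau was 0.14 for sod-4. ctl-3 in nth-1 was -0.0026 with limma voom, and with summed catalases aggregate tau on the wild-type backgrounds gave 0.21.

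Leaving out each library in turn moved 8 of 9 members across 0 for ung-1 over wild type. They ran from -0.12 to 0.081 for sod-1, -0.28 to 0.074 for sod-2, -0.088 to 0.35 for sod-4 and -0.103 to 0.95 for ctl-1. ctl-2 ran from -0.14 to 0.63, ctl-3 from -0.23 to 0.65, prdx-2 from -0.045 to 0.197 and skn-1 from -0.032 to 0.28. For nth-1, sod-4 ran from -0.077 to 0.196, ctl-3 from -0.21 to 0.41 and gcs-1 from -0.036 to 0.16. For the difference between mutants skn-1 ran from -0.045 to 0.302, for 22 °C over 20 °C from -0.0083 to 0.301, and for loss within aggregate tau sod-1 from -0.0028 to 0.26. For aggregate tau on the wild-type backgrounds, ctl-1 ran from -0.077 to 0.87 and ctl-2 from -0.28 to 0.97, both negative without the wild type with aggregate tau at 20 °C. With 1 library per group, p-values rest on the fitted models, additive or with terms for glycosylase loss by tau state. A member that missed the threshold is not shown to be unchanged.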

Other observations

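spe-44, a transcription factor gene of sperm differentiation, was the sperm-list gene that passed in 2 comparisons by edgeR. It stood at 70.7 and 72.3 CPM with aggregate tau on the wild-type backgrounds at 22 and 20 °C, and at 24.0 and 32.6 CPM without tau. Aggregate over no tau on these backgrounds differed by 1.36 on the log2 scale (SE 0.22, adjusted p = 0.0399), and loss of a glycosylase within aggregate tau -1.58 (SE 0.22, adjusted p = 0.0279). The remaining 7 of the 8 listed sperm genes did not pass in either.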
